A study of Rattus norvegicus with 72 samples.

Results

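The 8 genes described here encode the elastic fibre of the rat lung: Eln, Fbn1, Fbln5, Efemp2, Ltbp4, Lox, Loxl1 and Mfap4. They were taken by symbol from a table of 30042 genes, and all 8 were found. The lungs came from 72 adult male Sprague-Dawley rats, 6 in each of 12 groups, with 1 RNA sequencing library per animal. All rats were of 1 strain and sex, and all stayed in inhalation chambers 6 hours a day for 4 days. The rats were kept in pairs, and cage mates are not named in the labels. Sample titles carry the letter H or L and define 4 arms: filtered air with the letter H (air H), 1000 ug/m3 of diesel exhaust particles with the letter H, filtered air with the letter L (air L), and 200 ug/m3 of the particles with the letter L. Lungs of each arm were taken 1, 7 or 27 days after the last exposure. What the letters stand for is not given in the sources used here, and neither is whether animals of the 2 letters were kept or sequenced together. The series concerns what inhaled diesel exhaust does to the lung. RNA was taken from a piece of whole lung, so airway, vessel, pleura and alveolar wall are mixed. Marker genes of alveolar type II cells, which make surfactant, summed to between 9489 and 21975 CPM, counts scaled to a library of 1000000, in every library.

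Elastic fibres give the alveolar wall, the airways and the pulmonary vessels their recoil. Tropoelastin, the product of Eln, is laid onto a scaffold of fibrillin microfibrils, to which fibulins and a latent TGF-beta binding protein bring it, and copper-dependent lysyl oxidases then cross-link it. In the lung most of this assembly happens while alveoli form, the finished fibre is very long-lived, and Eln mRNA is low in the resting adult organ. The members are taken in this order of roles: core (Eln), scaffold (Fbn1, Ltbp4, Mfap4), tethers (Fbln5, Efemp2) and cross-linkers (Lox, Loxl1).

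Sequences before the annotated start were taken from RefSeq for the assembly GRCr8, which differs from the build of the counts, and 5 of the 8 members had an entry. Those of 3 genes are shown because their courses differed: Fbn1 was lower at day 27 than at day 1 in every arm, Ltbp4 had a different course in H and L animals, and Efemp2 had no called fall from day 1 to day 27. Each is the 250 bases before the start, 5′ to 3′ on the gene's strand. Capitals mark matches, on either strand, to GGGCGG (the SP1 box), CAGAC (the SMAD box), TGANTCA (the AP-1 site) or TATAAA (the TATA box). None of these motifs contains another, and overlapping matches to 1 motif, as in Efemp2, were counted singly.
Fbn1, chr3:133203391-133203640, minus strand: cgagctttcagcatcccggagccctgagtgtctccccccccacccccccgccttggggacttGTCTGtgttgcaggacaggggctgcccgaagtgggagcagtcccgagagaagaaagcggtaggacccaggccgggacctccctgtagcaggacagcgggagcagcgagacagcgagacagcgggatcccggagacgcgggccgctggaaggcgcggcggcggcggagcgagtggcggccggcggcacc
Ltbp4, chr1:91759808-91760057, minus strand: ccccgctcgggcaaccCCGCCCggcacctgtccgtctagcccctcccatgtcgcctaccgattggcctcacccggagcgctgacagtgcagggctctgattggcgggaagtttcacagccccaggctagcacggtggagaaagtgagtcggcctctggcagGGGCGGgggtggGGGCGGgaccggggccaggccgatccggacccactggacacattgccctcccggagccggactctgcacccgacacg
Efemp2, chr1:212211472-212211721, plus strand: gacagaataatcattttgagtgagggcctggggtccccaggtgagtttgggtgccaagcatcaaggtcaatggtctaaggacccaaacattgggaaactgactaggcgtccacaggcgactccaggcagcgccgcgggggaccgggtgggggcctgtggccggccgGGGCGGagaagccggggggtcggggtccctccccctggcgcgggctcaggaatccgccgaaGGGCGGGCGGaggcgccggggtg
The window of Fbn1 held 1 SMAD box and 0 SP1 boxes, and those of Ltbp4 and Efemp2 held 3 SP1 boxes each and 0 SMAD boxes. Fbln5 had 1 SP1 box and 2 SMAD boxes, and Loxl1 had 2 SMAD boxes. The AP-1 site and the TATA box were in 0 of the 5 windows. Among 33469 windows of this length, 30.5% held the SP1 box, 42.9% the SMAD box, 6.34% the AP-1 site and 12.9% the TATA box. These matches are a description of letters and show no binding. GC content was 71.2% for Fbn1, 70.4% for Ltbp4 and 68.0% for Efemp2, against a median of 51.2% over all windows.

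Depth differed by day: 1042336 to 2397971 counts per library at day 1, 3471134 to 6279763 at day 7 and 3761631 to 6520180 at day 27, leaving aside 3 shallow libraries. All 3 came from 1000 ug/m3 rats, namely animal 037 (day 7, 105453 counts), animal 024 (day 27, 439393 counts) and animal 045 (day 27, 149004 counts). Day cannot be told apart from depth between day 1 and later, or from the age of the animals at any time. The comparisons were also run without the shallow libraries and with libraries thinned to 1000000 counts. Levels are CPM scaled by the TMM method, which corrects library totals for composition, and levels of different genes are not compared because they were not divided by gene length. "Called" means an adjusted p under 0.05 in edgeR's quasi-likelihood test over all genes.

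Eln showed the widest range between groups of the 7 measured members, a 4.07-fold span of group means, and it fell with time in every arm, in air as in exposed lungs. In air H lungs it lay between 1142 and 1660.2 CPM at day 1 (median 1504), between 628 and 975 at day 7 (median 803) and between 499 and 710.5 at day 27 (median 571). In the 1000 ug/m3 lungs the medians were 1411, 737 and 522 CPM, with ranges of 899.9 to 1515, 328 to 827 and 382 to 621. The lowest value at day 7, 328 CPM, came from the shallow animal 037 and rested on 38 counts. In air L lungs the ranges were 1224 to 1669, 750.5 to 904 and 324 to 541 CPM, with medians of 1428, 852 and 372. In the 200 ug/m3 lungs they were 1170.2 to 1833, 678 to 1183 and 382 to 470.1 CPM, with medians of 1698, 874 and 434. Every day 27 lung lay below every day 1 lung of its arm in all 4 arms, a separation seen in either direction for 5.48%, 4.66%, 14% and 7.87% of all genes in air H, 1000 ug/m3, air L and 200 ug/m3 lungs.

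**Figure D1:**
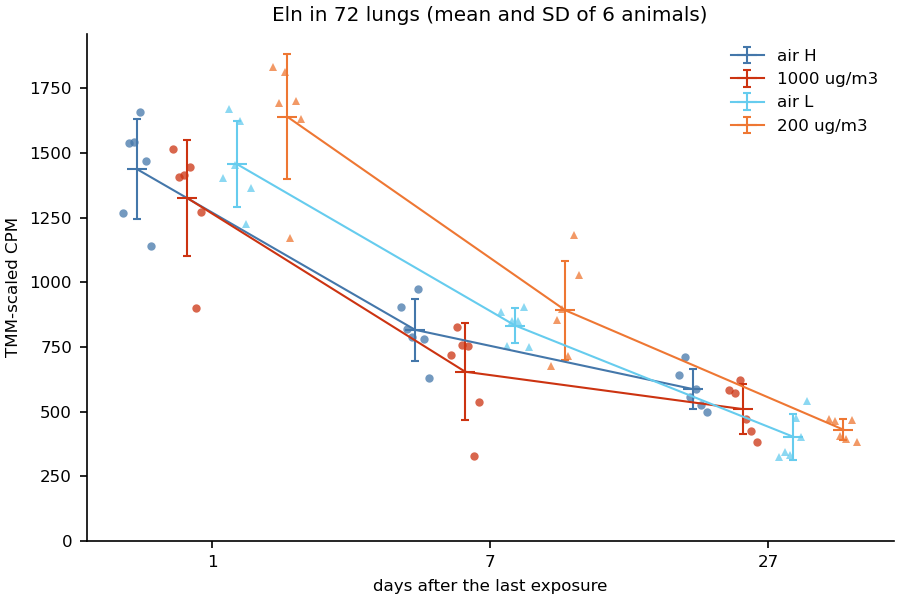
Eln in each of the 72 lungs as TMM-scaled CPM (vertical axis, from 0) at 1, 7 and 27 days (horizontal axis, days evenly spaced and not to scale). Points are animals, horizontal ticks and bars are the mean and SD of 6 animals, and lines join the means of an arm, with group means falling from between 1326 and 1640.2 CPM at day 1 to between 403 and 586 at day 27.

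Averaged over the 4 arms, Eln was at 0.55 times its day 1 level by day 7 and at 0.328 times by day 27 (log2 difference -1.61, SE 0.07, adjusted p = 3.52e-28). It fell again from day 7 to day 27, by 0.74 on the log2 scale (SE 0.07, adjusted p = 9.88e-13). In single arms the fall from day 1 to day 27 was -1.30 in air H, -1.35 in 1000 ug/m3, -1.86 in air L and -1.93 in 200 ug/m3 lungs. All 12 day comparisons of Eln within arms were called. The weakest of these was day 27 against day 7 in the 1000 ug/m3 lungs (-0.42, adjusted p = 0.045). It was not called without the shallow libraries at the same size of -0.42 (adjusted p = 0.0546), or after thinning (-0.44, adjusted p = 0.075). The call was also lost with RLE factors (adjusted p = 0.0683), a 1 CPM filter (0.0695), no filter (0.0938), DESeq2 (0.0848) and a fit of the 2 groups alone (0.141). It stayed with limma-voom, without scaling factors and in the fit of all 72 libraries. Because a piece of lung was measured, fewer Eln-expressing cells and less Eln mRNA per cell cannot be told apart.

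Of the scaffold genes, Fbn1, which encodes fibrillin-1, the main protein of the microfibril, had the tightest values within groups, with a median coefficient of variation of 8.03%. Its group means ran from 768 to 839 CPM at day 1, from 670.2 to 743 at day 7 and from 495 to 583 at day 27. In air L lungs the ranges were 800.1 to 867, 704 to 798 and 433 to 520 CPM, so the 3 days did not overlap. The later step was the larger one: averaged over the arms Fbn1 fell by 0.19 from day 1 to day 7 (adjusted p = 9.36e-06) and by 0.40 from day 7 to day 27 (adjusted p = 5.38e-14), both on the log2 scale. From day 1 to day 27 the fall was -0.59 (SE 0.04), to 0.665 times, and it was called in each of the 4 arms, between -0.47 and -0.75. From day 1 to day 7 only the 200 ug/m3 arm was called (-0.21, adjusted p = 0.0332), while the other 3 arms had -0.17 each. That call did not hold after thinning (adjusted p = 0.0535), without scaling factors (0.0545), with a 1 CPM filter (0.0521), without a filter (0.11) or in a fit of the 2 groups alone (0.12). Without the shallow libraries air H and 1000 ug/m3 passed as well, at -0.19 each (adjusted p = 0.025 and 0.037). Both also passed with RLE factors (adjusted p = 0.0148 and 0.0205) and DESeq2 (0.0119 and 0.0173). So they did in the fit of all 72 libraries (0.0226 and 0.0312) and of the 2 groups alone (0.018 and 0.0329). Air H alone passed after thinning (0.0457) and with a 1 CPM filter (0.0439). Neither passed with limma-voom, without scaling factors or without a filter. These calls do not set the 200 ug/m3 arm apart.

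Ltbp4 encodes a latent TGF-beta binding protein that also anchors fibulins to the microfibril and that lung elastic fibres need to assemble. Its course differed between the letters. In air H lungs it lay between 439 and 611 CPM at day 1 (median 525), between 178 and 280.4 at day 7 (median 230.2) and between 432 and 562 at day 27 (median 495). The day 7 lungs lay below all others of that arm, and day 1 and day 27 overlapped. The 1000 ug/m3 lungs had the same dip, with medians of 514, 212 and 407 CPM and ranges of 321 to 630.4, 138 to 250 and 237 to 488. The lowest of these at day 7 and at day 27, 138 and 237 CPM, were the shallow animals 037 and 045, with 16 and 38 counts.

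In air L lungs Ltbp4 was lower at each later day instead, going from 502 to 667 CPM (median 584) to 361 to 522 (median 401) and then to 252 to 373 (median 286). In the 200 ug/m3 lungs the medians were 549, 406 and 349 CPM, and the day 27 lungs spread from 288 to 696. The highest of these was animal 089, and the next lung had 417 CPM. Day 7 against day 1 was -1.15 in air H and -1.15 in 1000 ug/m3, against -0.51 in air L and -0.42 in 200 ug/m3 lungs. The last of these was not called by edgeR (adjusted p = 0.0586), although the groups did not overlap. It was called by DESeq2 (-0.42, adjusted p = 0.0286) and limma-voom (-0.42, adjusted p = 0.0341). So it was in the fit of all 72 libraries (-0.41, adjusted p = 0.045) and of the 2 groups alone (-0.41, adjusted p = 0.00142), but not with other factors, filters or thinning. Day 27 against day 7 was 1.05 in air H and 0.89 in 1000 ug/m3 lungs, both called higher, against -0.47 in air L, called lower (adjusted p = 0.0221), and -0.05 in 200 ug/m3 lungs (adjusted p = 0.898). Without animal 089 the last value was -0.28 (adjusted p = 0.0891), an exclusion chosen after the values were seen, and day 27 against day 1 in that arm went from -0.47 to -0.69 and stayed called. Averaged over the 4 arms Ltbp4 was at -0.82 by day 7 and at -0.45 by day 27 against day 1 (SE 0.07 each), a mean of unlike courses.

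Mfap4, a microfibril-associated glycoprotein of elastic tissue, could not be assessed. It had 32 counts over all 72 libraries, at most 3 in any library and 0 in 49 of them, and failed the filter on low counts in every fit. The other 7 members passed it in all fits. The sources used here do not give the strand setting or annotation of the counting, so this count is no statement about the gene's expression. A collagen gene of the same matrix, Col1a2, had 20 counts in all.

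Of the tethers, Fbln5 encodes fibulin-5, which binds tropoelastin and Loxl1. Its medians in CPM at days 1, 7 and 27 were 108, 63.8 and 74.4 in air H, 112, 57.2 and 57.1 in 1000 ug/m3, 98.5, 83.7 and 49.8 in air L, and 118, 84.9 and 62.9 in 200 ug/m3 lungs. All 6 lungs of the 1000 ug/m3 arm at day 7 (48.2 to 71.5) and at day 27 (37.4 to 62.3) lay below its day 1 lungs (97.7 to 138). Day 27 against day 1 was called lower in all 4 arms, from -0.52 in air H to -1.0 in 1000 ug/m3 lungs, and averaged -0.76 (SE 0.08, adjusted p = 2.64e-12). In the H arms the fall by day 7 was called (-0.73 and -0.88), and day 27 against day 7 was not (0.21 and -0.12). In air L lungs the values were -0.17 by day 7 (adjusted p = 0.567) and -0.63 from day 7 to day 27 (adjusted p = 0.00612). The averaged step from day 7 to day 27 was -0.20 (adjusted p = 0.0517), and -0.24 without animal 089 (adjusted p = 0.0112).

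Efemp2 encodes fibulin-4, which brings Lox to tropoelastin. It was the only one of the 7 tested members with no called fall from day 1 to day 27: the average was 0.07, with a 95% interval from -0.06 to 0.20, and the 4 arms ran from 0.03 to 0.12. Group means lay between 22.7 and 32.2 CPM, and counts in single lungs were between 4 and 199, the lowest of the 7. At day 7 it was higher than at day 1 on average (0.21, SE 0.06, adjusted p = 0.0038). Within arms this rise was called in air L alone, where 5 of 6 day 7 lungs (26.5 to 38.4 CPM) lay above all day 1 lungs (17.4 to 27). The difference was 0.49 there (adjusted p = 0.00696), and day 27 against day 7 was -0.37 (adjusted p = 0.0129), or -0.35 and not called after thinning (adjusted p = 0.228). With libraries thinned to 1000000 counts the averaged rise was 0.22 and not called (adjusted p = 0.0627).

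The cross-linkers Lox and Loxl1 encode lysyl oxidases, which oxidise lysines of tropoelastin and, for Lox, collagen. Lox fell in 2 nearly equal steps of -0.31, both called on average, and reached -0.63 by day 27 (SE 0.06, adjusted p = 1.22e-13). Its medians at days 1, 7 and 27 were 209, 169 and 134 CPM in air H, 219, 171 and 129.8 in 1000 ug/m3, 185, 162 and 116 in air L, and 190.4, 156 and 125 in 200 ug/m3 lungs. The fall from day 1 to day 27 was called in all 4 arms, from -0.55 to -0.71, and the groups did not overlap in air H and in 200 ug/m3 lungs.

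Loxl1 fell less evenly. Its average from day 1 to day 7 was -0.17 (adjusted p = 0.0153), and -0.13 without scaling factors (adjusted p = 0.0657). Day 7 against day 1 was 0.10 in air H and 0.07 in 1000 ug/m3 lungs, neither called, and -0.51 in 200 ug/m3 lungs, called (adjusted p = 0.00605). Air L had -0.30 (adjusted p = 0.12). By day 27 it was at -0.33 in air H (adjusted p = 0.0204), -0.91 in air L (adjusted p = 9.77e-07) and -0.69 in 200 ug/m3 lungs (adjusted p = 9.99e-05), while 1000 ug/m3 lungs had -0.22 (adjusted p = 0.151). In air L lungs the range went from 176 to 271 CPM at day 1 to 104 to 139 at day 27, with no overlap.

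**Figure D2:**
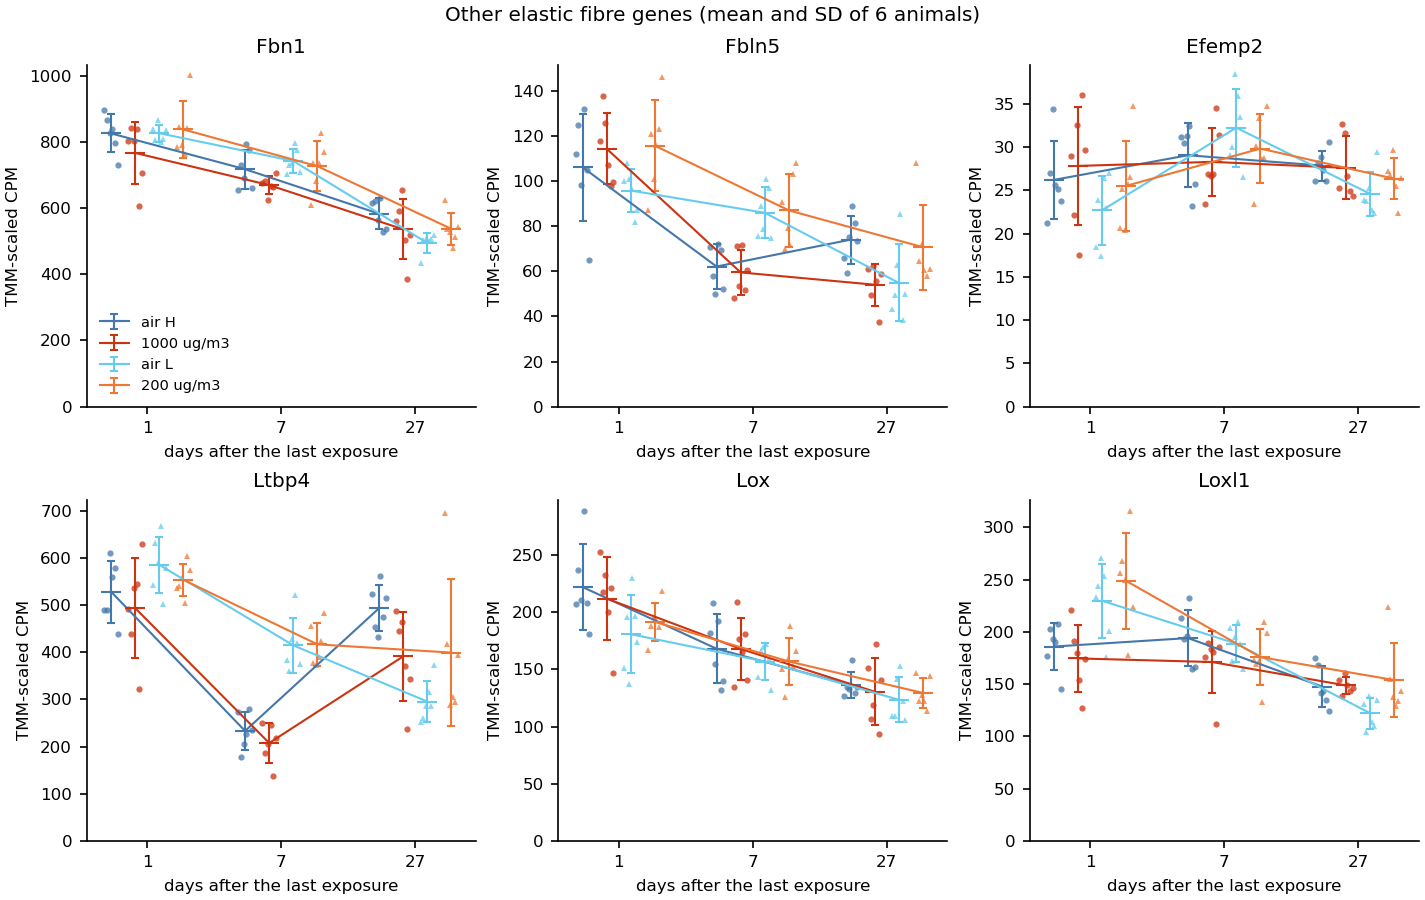
The 6 other measured members in each of the 72 lungs as TMM-scaled CPM (vertical axes, each from 0) at 1, 7 and 27 days (horizontal axis, not to scale). Points are animals and bars are the mean and SD of 6 animals; Ltbp4 dips at day 7 in both H arms (means 233 and 208 CPM) and Efemp2 stays between group means of 22.7 and 32.2 CPM.

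From day 1 to day 27 a larger share of the members than of all genes was called in each arm. The members were chosen with earlier results of these data known, so this larger share is a description and no test of the set. In air H, 5 of 7 members were called from day 1 to day 27, where 10.5% of all tested genes were, 4 of 7 in 1000 ug/m3 (16.1%), 6 of 7 in air L (31.9%) and 6 of 7 in 200 ug/m3 lungs (23.3%). All of these calls were lower, against 6.39%, 9.85%, 17.9% and 13.2% of genes called lower in the same order of arms. Groups did not overlap for 3, 2, 4 and 3 members, against 5.48%, 4.66%, 14% and 7.87% of all genes in either direction. By day 7 the counts were 4 of 7 in air H (38.6% of genes), 4 of 7 in 1000 ug/m3 (39.3%), 3 of 7 in air L (13.6%) and 3 of 7 in 200 ug/m3 lungs (11.8%), the only rise being Efemp2 in air L. Between days 7 and 27 they were 5 of 7 in air H (30% of genes), 4 of 7 in 1000 ug/m3 (17.7%), 7 of 7 in air L (16.2%) and 2 of 7 in 200 ug/m3 lungs (4.2%), with Ltbp4 higher in both H arms. Lox was called there in air H (-0.34, adjusted p = 0.0322) and air L (-0.33, adjusted p = 0.0184), but not after thinning (adjusted p = 0.111 and 0.0619), nor in air H without the shallow libraries (-0.32, adjusted p = 0.0533). Averaged over the arms, 7 of 7 were called from day 1 to day 7 (49.5% of genes), 6 of 7 from day 1 to day 27 (45.7%, with 23.3% lower and 22.5% higher) and 5 of 7 from day 7 to day 27 (20.2%). The median log2 difference of the 7 from day 1 to day 27 was -0.59, against 0.01 over all genes. Without the shallow libraries the 1000 ug/m3 count from day 7 to day 27 was 1 of 7, with Ltbp4 remaining. The share of all genes called in that run is not given here.

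**Figure D3:**
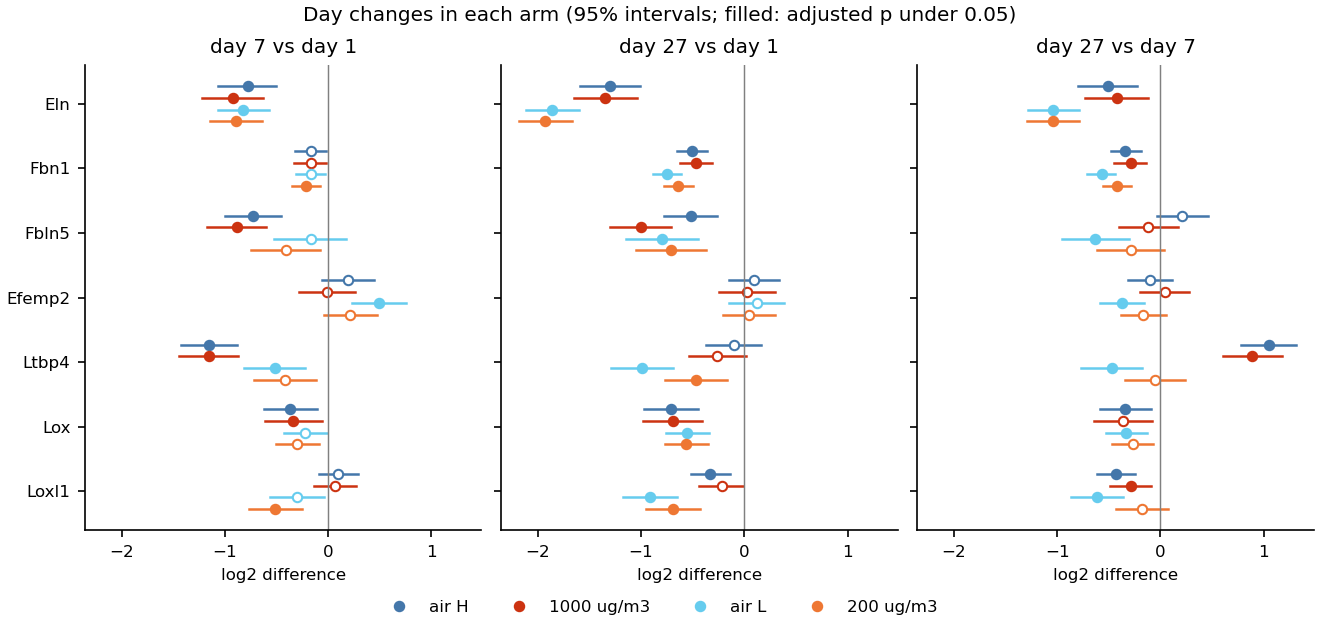
Log2 difference between days (horizontal axis) for the 7 tested members (rows) in each of the 4 arms (colours), with 95% intervals from edgeR; filled points passed an adjusted p under 0.05. Eln is filled in all 12 positions, and Ltbp4 from day 7 to day 27 lies at 1.05 and 0.89 in the H arms and at -0.47 and -0.05 in the L arms.

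With all animals included, no called difference between exposed and air lungs was found in any of the 7 tested members. In the 6 comparisons of exposed with air lungs of the same letter and day, edgeR, DESeq2 and limma-voom each called 0 of 42 member tests, and by edgeR 4 had an unadjusted p under 0.05. Among all genes the shares called were 0% in 5 of the 6 comparisons and 0.00698% in 200 ug/m3 against air L at day 7. The 42 log2 differences lay between -0.36 and 0.44, and their 95% intervals between -0.73 and 0.81. Averaged over the 6 strata, Eln differed by -0.03 (95% interval -0.14 to 0.08), Fbn1 by -0.03 (-0.09 to 0.03), Fbln5 by 0.06 (-0.06 to 0.19), Efemp2 by 0.03 (-0.07 to 0.13), Ltbp4 by -0.01 (-0.13 to 0.10), Lox by 0.00 (-0.10 to 0.10) and Loxl1 by 0.03 (-0.07 to 0.13). None of the 7 was called in this average by the 3 tools, 0 had an unadjusted p under 0.05, and 0.0134% of all genes were called. In 42 further tests of day changes in exposed against air lungs of the same letter, edgeR, DESeq2 and limma-voom each called 0. By edgeR 4 had an unadjusted p under 0.05, and 0% of all genes were called in each of the 6 contrasts. From day 1 to day 27 these were Fbln5 in 1000 ug/m3 minus air H (-0.49, 95% interval -0.87 to -0.10) and Ltbp4 in 200 ug/m3 minus air L (0.52, 0.10 to 0.94). From day 7 to day 27 they were Ltbp4 (0.42, 0.01 to 0.84) and Loxl1 (0.43, 0.08 to 0.78) in 200 ug/m3 minus air L. Without animal 089 the last 3 were 0.28, 0.19 and 0.29.

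The 4 differences from air that were farthest from 0 were all at day 27. In 200 ug/m3 lungs Ltbp4 differed from air L by 0.44 (adjusted p = 0.461), Fbln5 by 0.36 (adjusted p = 0.504) and Loxl1 by 0.34 (adjusted p = 0.378). Without animal 089 each of the 3 was 0.20. Fbln5 was -0.36 in 1000 ug/m3 against air H (adjusted p = 0.716), where 4 of 6 exposed lungs (37.4 to 62.3 CPM) lay below all air lungs (59.3 to 89.1). H animals carry 2 series of numbers, 001 to 024 and 025 to 048, whose meaning is not given. In the second series alone, 2 exposed against 2 air lungs with the shallow animal 045 among them, Eln was lower in 1000 ug/m3 lungs at day 27 (-0.39, adjusted p = 0.00431), as was Ltbp4 (-0.58, adjusted p = 9.23e-07). Animal 045 had 68 counts of Eln and 38 of Ltbp4. The share of all genes called in this small fit is not given here, so these 2 calls have no background beside them. In animals 001 to 024 the same differences were -0.11 and -0.11, neither called (adjusted p = 0.949 and 0.954).

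**Figure D4:**
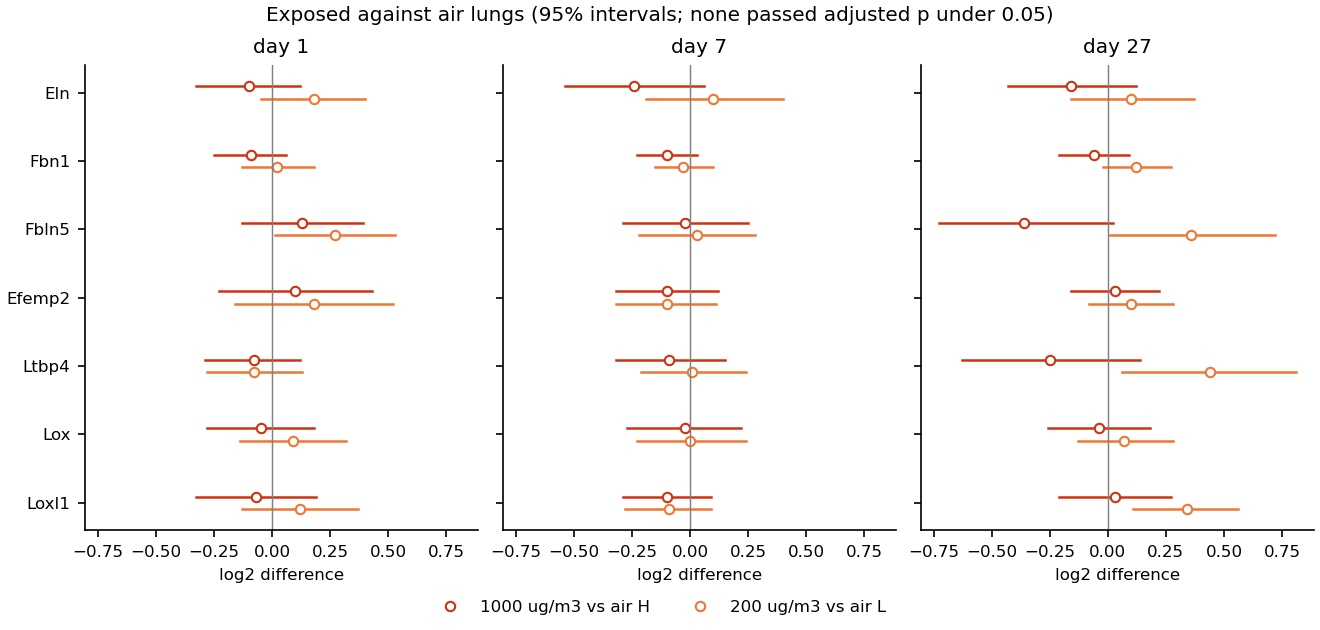
Log2 difference of exposed from air lungs (horizontal axis) for the 7 tested members (rows) at each day (panels), for 1000 ug/m3 against air H and 200 ug/m3 against air L (colours), with 95% intervals from edgeR. All points are open because none of the 42 passed, and they lie between -0.36 and 0.44.

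The course of several members differed between H and L animals, and it did so in air lungs too. The difference between the letters' day changes, tested as such, was called for 2 of 7 members in air lungs from day 1 to day 7 (18.1% of all genes), 3 of 7 from day 1 to day 27 (11%) and 4 of 7 from day 7 to day 27 (29%). In exposed lungs, where concentration differs along with the letter, it was called for 2 of 7 (18.2%), 0 of 7 (0.0401%) and 2 of 7 (14.7%). In the contrast with 0 calls, limma-voom and DESeq2 also called 0, and 2 members passed 0.05 before adjustment. Ltbp4 had the widest gap: its change from day 7 to day 27 was higher in H than in L by 1.57 in air (SE 0.20, adjusted p = 2.89e-09) and by 0.98 in exposed lungs (SE 0.21, adjusted p = 0.00036). Its change from day 1 to day 7 was lower in H by 0.68 in air and by 0.77 in exposed lungs.

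Eln fell less in H than in L lungs after day 7. The gap was 0.57 in air (adjusted p = 0.0185) and 0.65 in exposed lungs (adjusted p = 0.0164), the latter 0.62 and not called after thinning (adjusted p = 0.0562), while up to day 7 it was -0.01 and -0.07, neither called. Fbln5 in air lungs had a lower change by day 7 in H than in L (-0.60, adjusted p = 0.0446) and a higher one from day 7 to day 27 (0.89, adjusted p = 0.000509), the latter between 0.21 in air H, not called, and -0.63 in air L. Without the shallow libraries the gap by day 7 was -0.59 (adjusted p = 0.056). Fbn1 (0.29, from day 7 to day 27 in air), Loxl1 (0.58 from day 1 to day 27 in air and 0.54 from day 1 to day 7 in exposed lungs) and Eln from day 1 to day 27 in air (0.56, adjusted p = 0.047) make up the rest. After thinning, Eln (0.63, adjusted p = 0.0532) and Loxl1 (0.48, adjusted p = 0.094) from day 1 to day 27 in air were not called. Eln was also not called there with a 1 CPM filter (adjusted p = 0.055) or without a filter (adjusted p = 0.0854). Fbn1 from day 7 to day 27 in air was not called without scaling factors (0.24, adjusted p = 0.0559) or without a filter (0.25, adjusted p = 0.0741). Efemp2 from day 1 to day 7 in air was -0.35 (adjusted p = 0.178), and -0.85 after thinning (adjusted p = 0.0305).

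Compared directly, air H and air L lungs differed in 0 of 7 members at day 1 (1.68% of all genes), 2 of 7 at day 7 (25.5%) and 3 of 7 at day 27 (14%). The count at day 7 was near the share of all genes. At day 1 limma-voom and DESeq2 also called 0, and 2 members passed 0.05 before adjustment. At day 7 Ltbp4 was lower in air H by 0.83 on the log2 scale (adjusted p = 2.68e-06), with 178 to 280.4 against 361 to 522 CPM. Fbln5 was lower by 0.47 (adjusted p = 0.00661), with 50 to 72.2 against 74.9 to 101 CPM, so neither gene's groups overlapped, as for 13.9% of all genes. At day 27 air H was higher in Eln (0.53, adjusted p = 0.00832), Fbn1 (0.23, adjusted p = 0.0323) and Ltbp4 (0.73, adjusted p = 0.0104). Of these Fbn1 was not called after thinning (0.20, adjusted p = 0.0864), while Efemp2 at day 7 went from -0.14 (adjusted p = 0.355) to -0.53 (adjusted p = 0.0285). Between the exposed arms Fbln5 (-0.51) and Ltbp4 (-0.93) were lower in 1000 than in 200 ug/m3 lungs at day 7. These were 2 of 7 members, again near the share of all genes (27.9%). Eln in this comparison was -0.37 (adjusted p = 0.0611), and it was called by DESeq2 (-0.42, adjusted p = 0.0444), by limma-voom (-0.34, adjusted p = 0.0485) and in the fit of all 72 libraries (-0.38, adjusted p = 0.0367). At days 1 and 27 edgeR called 0 of 7 members and 0% of genes, with 2 and 0 members at an unadjusted p under 0.05; DESeq2 called 1 member at day 1 (Loxl1, -0.51, adjusted p = 0.0492) and limma-voom 0. Letter and concentration cannot be told apart in these exposed arms.

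Within groups, lungs high in one member tended to be high in several others. Over the 72 libraries, with each group's mean removed from log2 CPM, 11 of 21 pairs of members had a positive Pearson r with an adjusted p under 0.05, and 12 by Spearman's rho, in a permutation test of 100000 draws within groups. Pairs of other genes were not put through this test, so no share over all gene pairs stands beside the count. The count is therefore no statement that the members co-vary more than other genes do. The median r of the 21 pairs was 0.34. The highest was Eln with Loxl1 (r = 0.68, rho = 0.63), whose permutation p of 1e-05 is the smallest these draws can give (adjusted p = 0.000105). Ltbp4 with Loxl1 had r = 0.53 and rho = 0.42 (permutation p = 4e-05 and 0.00047, adjusted p = 0.000168 and 0.00159). Fbln5 with Lox had r = 0.51 and rho = 0.49 (permutation p = 2e-05 and 4e-05, adjusted p = 0.00014 and 0.00028). Without the 2 libraries farthest from the median of the first gene, these 3 values of r were 0.60, 0.48 and 0.46, and the 11 pairs ranged from 0.33 to 0.60.

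Efemp2 stood outside this pattern: its 6 values of r ran from -0.01 with Eln to 0.29 with Lox. The last had a permutation p of 0.0337 (adjusted p = 0.059), and its rho of 0.30 had an adjusted p of 0.0346. Lox with Eln had r = 0.13 and rho = 0.18 (permutation p = 0.327 and 0.17, adjusted p = 0.434 and 0.255). All 11 called pairs were positive within each number series of animals, but unevenly so. They ran from 0.01 to 0.57 in animals 001 to 024 (24 libraries), from 0.38 to 0.91 in animals 025 to 048 (12 libraries, 2 of them shallow) and from 0.29 to 0.67 in the L animals (36 libraries). Ltbp4 with Loxl1 was 0.01 in animals 001 to 024, 0.81 in animals 025 to 048 and 0.67 in the L animals, so in the first of these the relation did not hold. Eln with Loxl1 was 0.57, 0.91 and 0.57 in the same order. In animals 001 to 024, Fbn1 also had low values with Ltbp4 (0.07), Loxl1 (0.12) and Fbln5 (0.16). Fbln5 there had 0.10 with Ltbp4, 0.19 with Eln and 0.19 with Loxl1. The remaining called pairs there were Eln with Ltbp4 (0.31), Eln with Fbn1 (0.41) and Fbln5 with Lox (0.56). The libraries of a group share the day and the letter, and each pair of values shares its library's depth and scaling factor. Without scaling factors Eln with Loxl1 was 0.66.

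**Figure D5:**
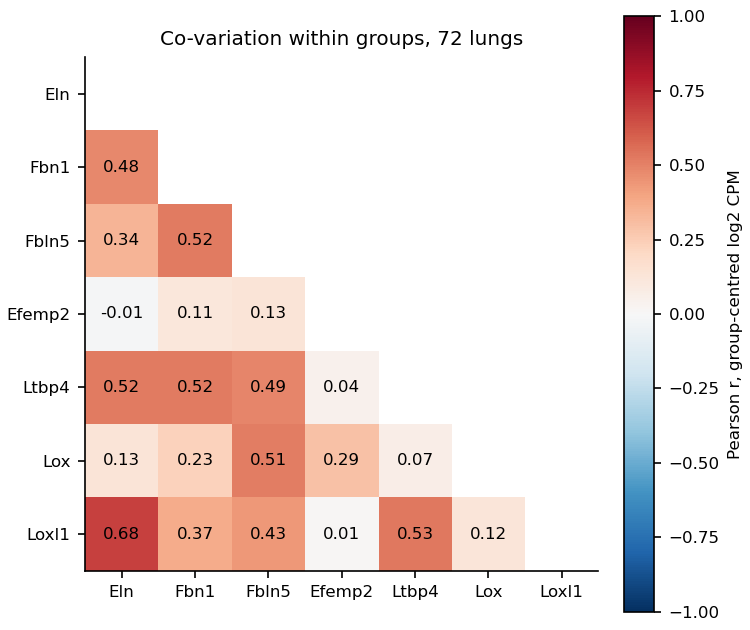
Pearson r between members over 72 lungs after removing group means from log2 CPM, one cell per pair of the 7 measured members, with colour from -1 to 1. Eln with Loxl1 is highest at 0.68, and the Efemp2 row and column hold values from -0.01 to 0.29.

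Across the 12 group means, which share libraries' depth by day, Fbn1 (r = 0.96), Lox (0.92), Fbln5 (0.89) and Loxl1 (0.86) followed Eln, Ltbp4 did so less (0.59), and Efemp2 had -0.21. These are descriptions with no test. Among 10663 genes with a mean of at least 10 CPM, the 5 most like Eln over the 12 group means were Col6a1 (r = 0.988), Col4a1 (0.981), Adamts17 (0.974), Col6a2 (0.972) and Pea15 (0.969). Fbn1 ranked 12 in that order, Lox 52, Fbln5 118 and Loxl1 181. The 5 most like the mean of the members were Col6a1 (0.981), Col1a1 (0.978), Hba1 (0.973), Smtn (0.972) and Lamc1 (0.972). Hba1, a haemoglobin chain of red blood cells, and Smtn, of smooth muscle, are in the marker lists given at the end.

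Genes of the surrounding matrix moved in the same averaged day comparisons as follows, against shares of all genes that were 25.2% higher and 24.3% lower by day 7, 22.5% and 23.3% by day 27, and 10.5% and 9.72% from day 7 to day 27. Of 14 tested collagens and small proteoglycans, 12 were lower at day 27 than at day 1 and 0 higher, with a median of -0.50. Among them Col1a1, the main chain of type I collagen, fell by 1.94 (SE 0.12, adjusted p = 1.63e-20) and Col6a2, a chain of the beaded filaments of type VI collagen, fell by 0.75 (SE 0.04, adjusted p = 2.09e-25). By day 7, 7 of 14 had fallen, with Col1a1 at -1.36 and Col6a2 at -0.41, and 1 was higher, Col3a1 (0.12), which was not called with RLE factors. In the later step 9 of 14 fell, among them Col3a1 (-0.63) and Col5a2 (-0.37).

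TGF-beta ligands and the other latent binding proteins fell in 5 of 6 cases from day 1 to day 27, with a median of -0.47. Tgfb1 fell by 1.11 and Ltbp2, a microfibril protein, by 0.43. By day 7 also 5 of 6 had fallen, with Tgfb1 at -1.38 and Ltbp3 at -0.80. From day 7 to day 27 Tgfb1 rose by 0.26 (adjusted p = 0.0472), while Ltbp2 (-0.25) and Tgfb3 (-0.27) fell. Ltbp4 averaged 0.36 in this step, but it was called higher in the H arms alone and called lower in air L. Microfibril glycoproteins outside the members were mixed. At day 7, 3 of 7 were higher and 1 lower, with Mmrn2 at 0.19, Emilin2 at 0.47 and Mfap3 at -0.27. In the later step 4 of 7 fell and 0 rose, with Emilin1 at -0.19 and Mfap5 at -0.23, and at day 27 Mfap2 (-0.41) and Mfap3 (-0.15) were called below day 1 and 0 above it. Without scaling factors that last count was 2 higher and 1 lower. The day 27 counts of this list were near or below the shares of all genes.

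Of the 5 fibulins outside the members, 3 were lower and 1 higher at day 27 than at day 1. Fbln1 fell by 0.44 and Fbln7 by 0.74, and Efemp1, which encodes fibulin-3, rose by 0.53. Efemp1 (0.46) and Hmcn1 (0.24) had risen and Fbln1 (-0.36) had fallen by day 7, and Fbln2 fell from day 7 to day 27 (-0.42). Of 8 other lysyl oxidase genes and genes of their maturation, 3 were lower and 1 higher at day 27, with 5 lower under RLE factors and 2 lower without scaling factors. Loxl2, a lysyl oxidase of basement membranes, fell by 0.65 and Fkbp10, a collagen chaperone, by 0.40, and Tll1, a protease that matures Lox, rose by 0.35. By day 7 Pcolce (0.19) was higher and Atp7a (-0.11) and Loxl3 (-0.23) were lower, of which the 2 falls were not called without scaling factors. These counts by day 7 were near or below the shares of all genes. In the later step 3 of 8 fell, with Loxl2 at -0.77 and Pcolce at -0.31.

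Of 9 microfibril-binding ADAMTS family genes, 4 were lower at day 27 than at day 1 and 0 higher. Adamts17 fell by 1.06 and Adamts6 by 0.53. By day 7, 3 of 9 had fallen, with Adamts17 at -0.46 and Adamts6 at -0.36, and Adamtsl2 (0.38) had risen. In the later step 5 of 9 fell, with Adamts17 at -0.60 and Adamts10 at -0.21, and Thsd4 rose by 0.12. Without scaling factors 2 of 9 were lower at day 27 than at day 1, and 3 of 9 fell and 2 rose in the later step.

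Of 8 proteases that can cut elastin, 4 were higher at day 7 than at day 1 and 0 lower, with the lysosomal cathepsins Ctsb at 0.44 and Ctss at 0.42. From day 7 to day 27, 6 of 8 fell and 0 rose, with Mmp2 at -0.30 and Mmp14 at -0.39, neither of which was called at day 7 (-0.06 and 0.03). At day 27 Ctsb (0.24) and Ctss (0.31) were still above day 1, and Mmp2 (-0.37) and Mmp14 (-0.36) were below it. The neutrophil elastase gene Elane had 5 counts in all and was not tested. Among 8 inhibitors of such proteases, Reck (0.16) was higher and Timp2 (-0.20) and Timp1 (-0.25) were lower at day 27, where 3 were higher and 1 lower without scaling factors. With TMM factors the day 27 counts of proteases and of inhibitors were near or below the shares of all genes. At day 7, 3 inhibitors were higher, among them Reck (0.13) and Cst3 (0.20), and Timp2 (-0.26) and Timp1 (-0.29) were lower. None of the 8 was called from day 7 to day 27 by edgeR, where 1 had an unadjusted p under 0.05, Serpina1 (0.23, adjusted p = 0.11). In the averaged comparison of exposed with air lungs, edgeR called 0 of the 65 tested genes of these 8 lists, of which 5 had an unadjusted p under 0.05.

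Markers of other cell types moved over the same days, where 22.5% of all genes were called higher and 23.3% lower at day 27 on average. Smooth muscle and myofibroblast markers, cells that make elastin in vessels and alveolar rims, were lower in 7 of 8 at day 27 than at day 1. Acta2, the smooth muscle actin, fell by 1.57 and Smtn by 0.85. Their summed level in air L lungs was 1069 to 1364 CPM at day 1 and 729 to 1012 at day 27, and in air H lungs 1004 to 1420 and 846 to 1131. Red blood cell markers were lower in 6 of 6, with a summed level of 1993 to 4213 CPM at day 1 and 1106 to 1352 at day 27 in air L, and 2256 to 3475 and 1213 to 3852 in air H lungs. Cell cycle genes were lower in 5 of 7, with group medians of the summed level between 71.7 and 127 CPM.

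Alveolar fibroblast markers were lower in 4 and higher in 2 of 6, with Pdgfra at 0.34 and Limch1 at -0.30, and adventitial fibroblast markers were lower in 4 of 8. Pericyte markers were lower in 4 and higher in 2 of 6, endothelial markers lower in 4 and higher in 1 of 6, and mesothelial markers called in 0 of 6. Type II pneumocyte markers were higher in 3 and lower in 1 of 6, and type I markers higher in 2 and lower in 1 of 6. One of 5 airway epithelial and 1 of 5 cardiac muscle markers was lower, and 0 of 4 macrophage and 0 of 5 neutrophil markers were called. The counts for type I, airway epithelial and cardiac muscle markers were near the shares of all genes, 22.5% higher and 23.3% lower. Of 6 cartilage markers, Acan, Col2a1, Comp, Col9a1 and Matn1 had medians under 1 CPM, and the sixth, Sox9, fell by 1.04. The part of these shifts in the members' falls was not tested.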

How the data were processed

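The lung libraries were prepared from ribosomal RNA-depleted total RNA with a strand-specific kit, per the labels' protocols. Tools listed without roles in the submitters' processing notes are HISAT2 2.1.0, HTSeq 0.6.1, Trimmomatic 0.35, SAMtools 1.8 and bcl2fastq 2.19, with Rnor_6.0 as the build. The strand setting and the annotation are not analysed here because no source used names them, so reads of overlapping or antisense genes cannot be told apart with certainty. The authors deposited raw read counts for 30042 genes in 72 libraries. None of 180 pairs of libraries within groups was identical.

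Counts were tested with edgeR 4.0.16 (R 4.3.3): TMM factors, filterByExpr by group, robust quasi-likelihood test, Benjamini-Hochberg adjustment over all genes. Day changes within arms used the 36 libraries of a letter, comparisons within a day its 24 libraries, and averages and differences between letters all 72. SEs come from the F statistic, and intervals are 95%. Log2 CPM used a prior count of 2. Alternatives included DESeq2 1.42.0 and limma-voom (limma 3.58.1). Animal numbers pair no groups. Cage mates and processing batches are not named in the labels. Each library is 1 animal. The 8 members, 8 matrix lists and 15 marker lists were chosen with earlier results of these data known. All members are named, and from each matrix list up to 2 rising and 2 falling genes with the smallest p in an averaged day change. Genes of the marker lists were named after their values were seen.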

Additional observations from a re-analysis of the deposited data

Results flagged for a closer look

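In 84 sets of 6 lungs (7 members in 12 groups), 8 had a lung whose gap to its nearest neighbour exceeded the 95% limit of Dixon's test, where chance flags about 1 in 20 sets. Animal 089 of the 200 ug/m3 group at day 27 accounts for 3 of the 8: it had 696 CPM of Ltbp4 with the next lung at 417, 108 CPM of Fbln5 with the next at 72, and 224 CPM of Loxl1 with the next at 155. Its Eln, 470.1 CPM, was the highest of its group but no outlier. In the 200 ug/m3 group of day 1, animal 060 had 1170.2 CPM of Eln with the next lung at 1630.2, and animal 062 had 1002 CPM of Fbn1 with the next at 846. Animal 081 of air L at day 27 had 433 CPM of Fbn1 with the next at 499.8. Animal 020 of air H at day 27 had 158 CPM of Lox with the next at 135. The shallow animal 037 had 112 CPM of Loxl1, on 13 counts, with the next at 176.

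Day changes differed between H and L animals in 13 tests, given as H minus L on the log2 scale. In air lungs from day 1 to day 7 these were Fbln5 (-0.60) and Ltbp4 (-0.68). From day 1 to day 27 they were Eln (0.56), Ltbp4 (0.89) and Loxl1 (0.58). From day 7 to day 27 they were Eln (0.57), Fbn1 (0.29), Fbln5 (0.89) and Ltbp4 (1.57). In exposed lungs they were Ltbp4 (-0.77) and Loxl1 (0.54) from day 1 to day 7, and Eln (0.65) and Ltbp4 (0.98) from day 7 to day 27. Some of these calls, in Eln, Fbn1, Fbln5 and Loxl1, did not hold under alternative processing, as given above.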

How the results depend on the processing

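Of 91 called member values in 40 comparisons, 0 reversed under any alternative run. The number still called was 88 with RLE factors, 86 without scaling factors, 85 with at least 1 CPM in 6 libraries, 82 without a filter, 88 with DESeq2, 90 with limma-voom, 86 without the 3 libraries below 500000 counts and 80 after thinning to 1000000 counts. It was 58 of 60 in a fit of all 72 libraries, 57 of 60 in fits of only 2 groups, 26 of 26 with the animal number series as a block, 25 of 26 in animals 001 to 024, and 21 of 21 without animal 089, an alternative chosen after seeing the data. In animals 025 to 048, with 2 lungs a group, 8 of 26 stayed called. There the members called were 2 (air H, day 7 against 1), 1 (day 27 against 1), 1 (day 27 against 7), 2, 2 and 0 (the same in 1000 ug/m3 lungs), and 2 in 1000 ug/m3 against air H at day 27. The 4 members called in 1000 ug/m3 lungs from day 7 to day 27 became 2 with RLE factors, the 1 CPM filter, no filter, DESeq2 or thinning, and 1 without the shallow libraries. The 2 called in air lungs for H minus L from day 1 to day 7 became 1 without scaling factors, with the 1 CPM filter, no filter, limma-voom or without the shallow libraries. Thinning left 1 in air from day 1 to day 27 and 1 in exposed lungs from day 7 to day 27, for H minus L. In 200 ug/m3 lungs from day 1 to day 7, 5 were called in a fit of 2 groups. Between 1000 and 200 ug/m3 at day 1, 1 was called by DESeq2 and 1 in the fit of all 72. The shares of all genes called in these alternative fits are not given here, so these counts have no background beside them. The cause of these moves in the counts was not tested, and the smaller fits held fewer samples. The 11 called pairs within groups stayed 11 without the shallow libraries and were 12 without scaling factors. The share of higher genes among all calls from day 1 to day 27 was 49.1%, and 61% without scaling factors; from day 7 to day 27 it was 51.8%, and 60.3% with RLE factors. No paired analysis was possible because the groups share no animal numbers. Efemp2, with as few as 4 counts in a library, has the fewest counts of the 7.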
